A study of Mus musculus with 48 samples.

Results

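The immediate early genes described here were Fos, Fosb, Jun, Junb, Jund, Egr1, Ier2, Klf6, Nr4a1 and Dusp1. They were chosen by name, and each symbol was matched to 1 Ensembl identifier, so that they made up 10 of the 47643 genes counted. Of the 10 genes, 9 were among the 14618 genes with enough counts to be tested, and Fosb was not. RNA bound to astrocyte ribosomes was compared between whole astrocytes (labelled Full Astrocytes, Astro below) and perisynaptic astrocytic processes (PAP), the fine branches that surround synapses. Both compartments came from the dorsal hippocampus of each of 3 mice, animals C1, C2 and C3, named animals 1 to 3 here. Every mouse carried the same transgene, Tg(Aldh1l1-eGFP/Rpl10a) JD130Htz, in which the ribosomal protein L10a joined to eGFP is made under regulatory sequence of Aldh1l1, a gene used as a marker of astrocytes. Ribosomes were pulled down with an antibody to GFP (translating ribosome affinity purification), so the values are those of cells in which that promoter is active and of whatever RNA the pulldown carries with it. There was no second genotype, treatment or time point, and the mice's age, sex and handling before dissection are not in the labels.

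Immediate early genes are transcribed within minutes of a stimulus from factors already present in the cell, and their transcripts are short-lived. In brain tissue they are used as a record of recent activity in neurons, and astrocytes also induce them. Fos and Jun proteins pair to form AP-1, a transcription factor that binds DNA as a dimer. Egr1, Klf6 and Nr4a1 are transcription factors of other families, Ier2 is a small nuclear protein, and Dusp1 is a phosphatase that switches off MAP kinases, the kinases that induce many of these genes.

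Each animal and compartment had been deposited as 8 technical replicates, which were summed to 1 pooled library, leaving 6 libraries and n = 3 per compartment. The Astro libraries held between 18707844 and 20293538 counts each, and the PAP libraries between 1829962 and 2980984. Levels are given as CPM (reads of a gene per fixed number of reads in the library) after TMM scaling of the library totals, and 3 counts correspond to 1.52, 1.54 and 0.987 CPM in PAP of animals 1 to 3 and to between 0.152 and 0.175 CPM in Astro. A PAP value of 0 is therefore compatible with a level below that limit. The 18 astrocyte markers summed to between 28455 and 39405 CPM in Astro and to 4836, 10528 and 17777 CPM in PAP, with 1 of them, Fgfr3, at 0 in PAP of animal 1. In bulk RNA, fewer cells or processes of a type and less RNA in each cannot be told apart.

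In Astro all 10 genes were counted in every library. In PAP, 6 of them (Fos, Fosb, Junb, Egr1, Ier2 and Klf6) had 3 counts or fewer in 1 or more animals and at least 10 in another at equal depth, beside 38.8% of all tested genes. Jund, which encodes the Jun protein that is made in resting cells as well as stimulated ones, had about the same level in all 3 PAP libraries. Nr4a1 and Dusp1 were the 2 genes that fell in PAP relative to Astro, and none rose (edgeR quasi-likelihood test, Benjamini-Hochberg adjusted p under 0.05). The same 2 and no others were below an unadjusted p of 0.05, beside 4520 of the 14618 tested genes. DESeq2 called these 2 as well, among 5141 genes that it called in all. Both compartments came from the same animals, and with the animal as a block neither gene was called (edgeR adjusted p = 0.206 for each); nor was either called without any 1 Astro library or at an adjusted p under 0.01. The 2 calls among 9 tested genes stand against 21.3% of all tested genes called in either direction, 15.4% lower and 5.92% higher, so the share of called genes was close to that of the whole transcriptome.

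**Figure D1:**
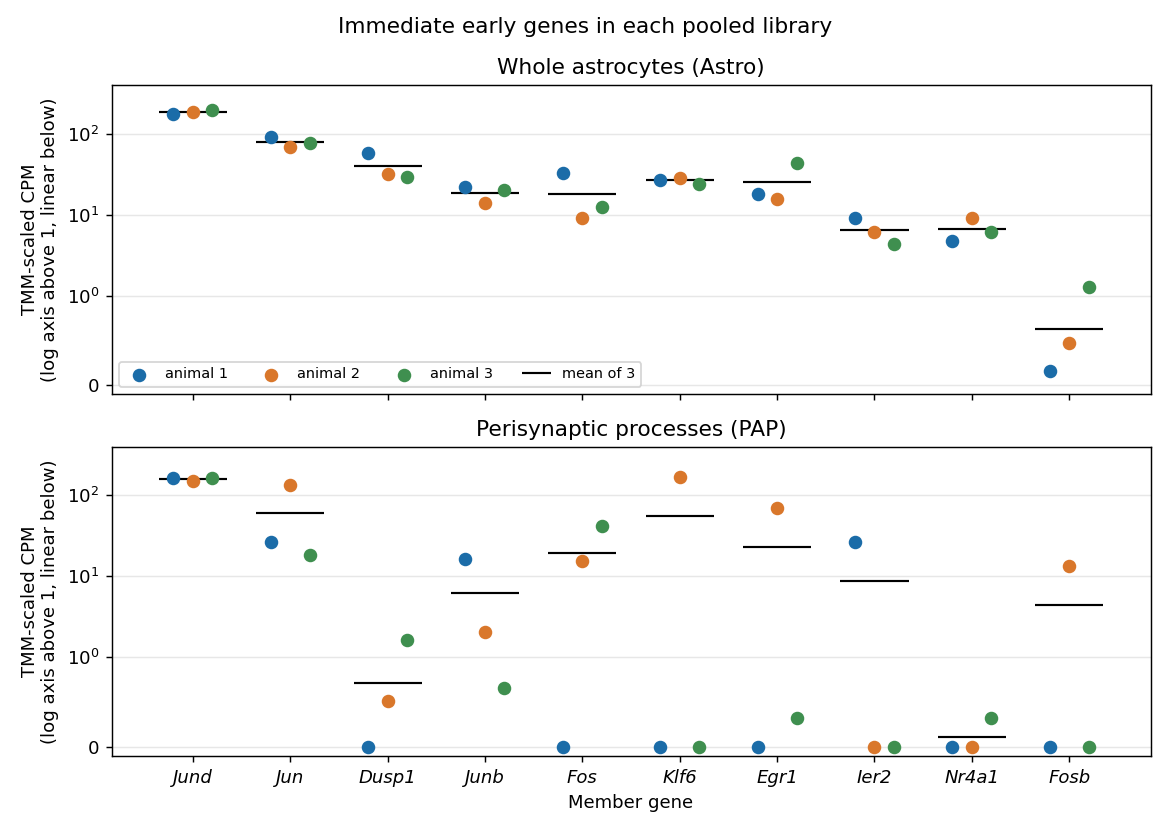
TMM-scaled CPM of the 10 immediate early genes (vertical axis, logarithmic above 1 and linear below) in the 3 Astro libraries and the 3 PAP libraries; points are animals and bars are means of 3. Jund lies between 152 and 198 CPM in all 6 libraries, while Klf6 in PAP is 168 CPM in animal 2 and 0 in the others.

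The regulatory sequence in front of 8 of the genes could be read from RefSeq promoters on GRCm38.p6, taken here as the 250 bases before the annotated transcription start. Egr1 and Ier2 had no entry. The cAMP response element (CRE), TGACGTCA, is bound by the CREB family, and its shorter form TGACG is found more often. Dusp1 held the full element, beginning 143 bases before the start, and was the 1 gene of 8 that did, beside 1.55% of 32851 promoters. The short form, which is contained in the full one, was in 5 of 8 (Fos, Fosb, Junb, Nr4a1 and Dusp1) beside 17.8% of all promoters. Nr4a1 held it 4 times. Both strands were searched. The AP-1 site TGANTCA and the CArG box, the core of the serum response element, were in none of the 8, beside 6.75% and 1.47% of all promoters. The Egr site, GCGGGGGCG or GCGTGGGCG, was in 2 (Fosb and Nr4a1) beside 3.06%. These matches describe letters in these windows and say nothing of binding.

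The promoters of the 2 genes that fell in PAP are printed beside that of Klf6, which has no such match and whose PAP level ranged from 0 to 168 CPM. They are written 5′ to 3′ in the direction of transcription, with the full CRE, its short form or the reverse complement CGTCA in capitals, and lie at chr15:101266596-101266845 on the plus strand (Nr4a1), chr17:26508473-26508722 on the minus strand (Dusp1) and chr13:5861239-5861488 on the plus strand (Klf6).
Nr4a1: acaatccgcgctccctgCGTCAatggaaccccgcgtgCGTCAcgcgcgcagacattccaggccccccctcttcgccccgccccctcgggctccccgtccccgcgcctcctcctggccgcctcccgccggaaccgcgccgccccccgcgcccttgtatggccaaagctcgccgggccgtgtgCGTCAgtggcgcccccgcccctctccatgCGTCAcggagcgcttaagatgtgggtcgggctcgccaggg
Dusp1: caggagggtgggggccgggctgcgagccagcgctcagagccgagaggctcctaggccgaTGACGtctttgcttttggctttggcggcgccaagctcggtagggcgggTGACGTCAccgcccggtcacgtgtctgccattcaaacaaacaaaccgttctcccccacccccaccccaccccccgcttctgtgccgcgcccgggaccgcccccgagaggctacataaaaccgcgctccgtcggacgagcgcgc
Klf6: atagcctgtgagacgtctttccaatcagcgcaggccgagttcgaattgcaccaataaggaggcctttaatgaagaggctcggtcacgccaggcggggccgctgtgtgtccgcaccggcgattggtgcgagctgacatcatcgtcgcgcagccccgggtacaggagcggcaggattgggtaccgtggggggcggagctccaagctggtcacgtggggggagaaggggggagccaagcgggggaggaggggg

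The RefSeq start used for Nr4a1 lies inside the gene's GENCODE span, which begins upstream of it, and the GENCODE span of Dusp1 extends upstream of its RefSeq start. Which start was in use in these cells cannot be read from counts per gene.

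The Fos family supplies the part of AP-1 that is most tightly tied to stimulation. Fos (chromosome 12, 85473890 to 85477273, plus strand, GRCm38) had 32.3, 8.99 and 12.5 CPM in Astro of animals 1 to 3 and 0, 15.4 and 42.4 CPM in PAP. The compartments overlapped: animal 1, the highest in Astro, was the one without a Fos count in PAP, and animal 3 was the highest in PAP. The means of 18.0 ± 12.6 CPM in Astro and 19.3 ± 21.5 CPM in PAP (SD, n = 3) gave a log2 fold change of 0.11 ± 1.64 (SE, n = 3; edgeR quasi-likelihood test, Benjamini-Hochberg adjusted p = 0.979), and its sign turned with the animal as a block (-0.32). Fosb (chromosome 7, 19302696 to 19310051, minus strand) was the rarest of the 10 in Astro, with 3, 8 and 25 counts. In PAP it had 26 counts in animal 2 and none in the others, which is 13.3 CPM against 0.467 CPM in Astro of the same animal. It did not pass the filter on low counts and was not tested.

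The Jun family supplies the partner of Fos and can also pair with itself. Jun (chromosome 4, 95049034 to 95052222, minus strand) was even in Astro, at 92.2, 68.8 and 77.5 CPM, and uneven in PAP, at 26.4, 135 and 18.4 CPM. Animal 2 was above every Astro library in PAP and the other 2 animals were below every Astro library. The log2 fold change was -0.41 ± 0.84 (SE, n = 3; edgeR adjusted p = 0.815). Without PAP of animal 2 it was -1.89 with an adjusted p of 0.0403 in the same test, and without PAP of animal 1 or 3 it was -0.09 and -0.05, not called. The antisense gene Junos shares 689 bases with Jun, and had 273, 184 and 217 counts in Astro and 5, 28 and 0 in PAP; as the strand setting of the counting is not given in the sources used here, reads of such pairs cannot be told apart.

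Junb (chromosome 8, 84974484 to 84978718, minus strand), which acts in part as a brake on Jun, had 21.9, 13.8 and 19.9 CPM in Astro and 16.2, 2.05 and 0.658 CPM in PAP. PAP of animal 1 lay within the Astro range and the others lay below it. For Junb the log2 fold change was -1.56 ± 1.29 (SE, n = 3; edgeR adjusted p = 0.510). Without PAP of animal 1 it was -3.85 (edgeR adjusted p = 0.0339). Prdx2, a peroxiredoxin gene on the other strand, overlaps 351 bases of Junb and had between 361 and 696 counts in PAP, more than Junb in every library.

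Jund (chromosome 8, 70698949 to 70700616, plus strand) stood apart from the other 9 by its evenness. It had 173, 186 and 198 CPM in Astro and 162, 152 and 164 CPM in PAP, with means of 186 ± 12.8 CPM and 159.5 ± 6.27 CPM (SD, n = 3). Every PAP library was below every Astro library, as for 35.1% of all tested genes, but the difference was small. The log2 fold change of -0.22 ± 0.28 (SE, n = 3) did not pass the test (edgeR adjusted p = 0.696), and lay above the median of all tested genes, -0.53. The PAP counts behind it were 320, 297 and 498. Gm11175, an antisense gene of 919 bases that lies inside Jund, was counted at between 0.373 and 0.431 times Jund in Astro and between 0.397 and 0.481 times in PAP, and strand again cannot be told apart.

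Egr1, a zinc finger factor widely used as a marker of synaptic activity (chromosome 18, 34859823 to 34864984, plus strand), had 17.9, 15.5 and 43.2 CPM in Astro. In PAP it had 0, 69.2 and 0.329 CPM, from 0, 135 and 1 counts. Animal 2 was above every Astro library and the other animals were below all of them. Egr1 had a log2 fold change of -0.14 ± 2.03 (SE, n = 3; edgeR adjusted p = 0.977). With the animal as a block it was -5.11 (edgeR adjusted p = 0.453). Without PAP of animal 2 the gene was called lower (edgeR adjusted p = 0.0251), on 1 PAP count in all, for which Astro was 131 times PAP with a 95% counting interval (exact binomial) of 23.5 to 5183. As that library held nearly all Egr1 counts in PAP, the lower level without it follows from the choice. The interval covers counting error alone.

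Klf6 (chromosome 13, 5861482 to 5870394, plus strand), a Krüppel-like factor, had one of the steadiest Astro levels and one of the most uneven PAP levels. Astro had 26.9, 28.2 and 24.2 CPM and PAP had 0, 168 and 0 CPM. The 328 counts in PAP of animal 2 came from all 8 technical replicates, each with 27 to 56, and the technical replicates of the other PAP libraries had none. PAP over Astro was 1.08 ± 2.28 on the log2 scale (SE, n = 3; edgeR adjusted p = 0.821). Its sign turned with the animal as a block, to -5.65 (edgeR adjusted p = 0.437), and without PAP of animal 2 the gene was at least 21.1-fold below Astro, against a limit of 3 counts per library (edgeR adjusted p = 0.0227). All Klf6 counts in PAP lay in the library left out, so that lower level follows from the choice.

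Ier2 (chromosome 8, 84661331 to 84662852, minus strand) showed the same form with another animal. Astro had 9.14, 6.07 and 4.34 CPM and PAP had 26.4, 0 and 0 CPM. The 52 counts in PAP of animal 1 were spread over its technical replicates, 5 to 9 in each. Ier2 had a log2 fold change of 0.43 ± 2.00 (SE, n = 3; edgeR adjusted p = 0.924). With the animal as a block it turned to -3.93 (edgeR adjusted p = 0.534), and without PAP of animal 1 its level was at least 5.16-fold below Astro by the same limit (edgeR adjusted p = 0.0245). Here too the library left out held every PAP count of the gene, so the lower level follows from the choice.

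Nr4a1 (chromosome 15, 101254269 to 101274795, plus strand), an orphan nuclear receptor, had 4.76, 9.11 and 6.06 CPM in Astro and 0, 0 and 0.329 CPM in PAP. The groups did not overlap, and the 3 PAP libraries held 1 count together, against 89, 156 and 120 counts in Astro. Astro was 45.7 times PAP by summed counts, with a 95% counting interval of 8.15 to 1809. For Nr4a1 the log2 fold change was -5.51 ± 1.11 (SE, n = 3; edgeR adjusted p = 0.0208). Resting on 1 PAP count, this fitted value is no estimate of size: it was -9.31 without PAP of animal 3, which held that count, and -8.37 and -4.25 in technical replicates 1 to 4 and 5 to 8. With all libraries drawn down to the smallest total, 11, 17 and 9 counts were left in Astro against 0, 0 and 1 in PAP, too few for the test.

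Dusp1 (chromosome 17, 26505590 to 26562128, minus strand) was at 12.1 ± 4.86 CPM per kb in Astro (SD, n = 3), a range that overlapped those of Junb and Fos, and was nearly missing from PAP in all 3 animals. Astro had 58.5, 32.1 and 29.4 CPM, from 1094, 549 and 582 counts, and PAP had 0, 0.513 and 1.64 CPM, from 0, 1 and 5 counts. The groups did not overlap. For Dusp1 the log2 fold change was -5.71 ± 1.39 (SE, n = 3; edgeR adjusted p = 0.0309), and -4.86 and -10.57 in technical replicates 1 to 4 and 5 to 8, the second of which held no PAP count. At equal depth the counts were 93, 50 and 52 in Astro and 0, 1 and 4 in PAP, and the adjusted p was 0.0608 in the same test. Ergic1, which overlaps 640 bases at the far upstream end of the annotated Dusp1 span, had 449, 182 and 589 counts in PAP.

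Where the calls of Nr4a1 and Dusp1 were lost, the fitted log2 fold changes still rested on 1 and 6 PAP counts, so they say little of the size. With the animal as a block, a fit that called 0.91% of all tested genes, they were -5.82 and -6.12. Without 1 Astro library they ran from -5.71 to -5.19 for Nr4a1 (edgeR adjusted p = 0.0720 to 0.0864) and from -5.88 to -5.35 for Dusp1 (0.129 to 0.164). Leaving out PAP of animal 2 gave 5 called genes of 9 tested (Jun, Egr1, Klf6, Nr4a1 and Dusp1), all lower, beside 17.8% of all tested genes called lower in that fit. Leaving out PAP of animal 1 gave 4 of 10 (Junb, Ier2, Nr4a1 and Dusp1), all lower, beside 19.6%. Leaving out PAP of animal 3 gave 2 of 10, both lower, beside 20.2%. Each call gained in this way (Jun, Junb, Egr1, Klf6 and Ier2) came when the gene's highest PAP library was the one left out, so the lower level that remains follows from that choice and is no independent sign of a fall.

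**Figure D2:**
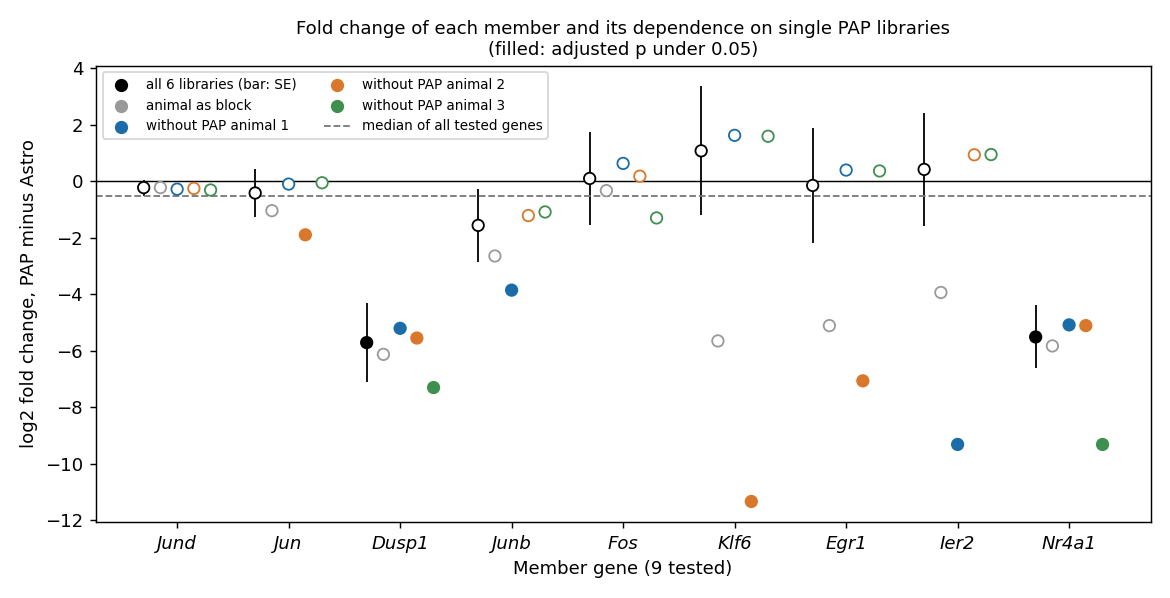
Log2 fold change of PAP over Astro for the 9 tested genes (vertical axis) in all 6 libraries with its SE, with the animal as a block, and without each PAP library; filled points have an adjusted p under 0.05. Jund stays near -0.22 in every fit, and the Klf6 point moves from 1.08 to far below 0 without PAP of animal 2; points below about -7 rest on 3 or fewer PAP counts and are not estimates of size.

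The median log2 fold change over the 9 tested genes was -0.22, beside -0.53 over all tested genes. With the animal as a block these medians were -3.93 and -1.63. The -3.93 is the value of Ier2 (edgeR with the block, adjusted p = 0.534), whose PAP counts all lay in 1 library. None of the 9 was called in that fit. The groups did not overlap for 3 of the 9 (Jund, Nr4a1 and Dusp1), all lower in PAP, beside 46% of all tested genes in either direction.

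Levels between genes were compared per kilobase of exonic length. In Astro, Jund had 111 ± 7.67 CPM per kb and Jun 24.9 ± 3.71 (SD, n = 3), and the 2 did not overlap with each other or with the next gene, Dusp1, at 12.1 ± 4.86. Junb (8.05 ± 1.84 CPM per kb), Fos (7.63 ± 5.35), Klf6 (6.02 ± 0.467), Egr1 (5.70 ± 3.43) and Ier2 (4.28 ± 1.60) followed, and each of these overlapped its neighbours in that order, so their order is not set by the data. Nr4a1 (1.89 ± 0.636 CPM per kb) and Fosb (0.101 ± 0.091) were lowest and separate. The Astro level of Jund per kb was above that of 96.1% of tested genes and that of Fosb above 0.906%. In PAP, Jund was again the highest at 95.6 ± 3.76 CPM per kb, and the other genes had SDs larger than their means, so no order among them is given.

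The spread between animals was measured as the coefficient of variation (CV, SD over mean) of the 3 CPM values in a compartment. In Astro it ran from 6.90% for Jund and 7.75% for Klf6 to 60.2% for Egr1, 70.1% for Fos and 90.3% for Fosb. The highest Astro library had 3.60 times the Fos level of the lowest and 2.78 times the Egr1 level, against 1.17 times for Klf6. In PAP the CV was 3.93% for Jund and between 109% and 173% for the other 9, where 173% is the largest value that 3 libraries can give. The median CV of the 9 tested genes was 33.6% in Astro and 137% in PAP, beside 22.1% and 97.0% over all tested genes.

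**Figure D3:**
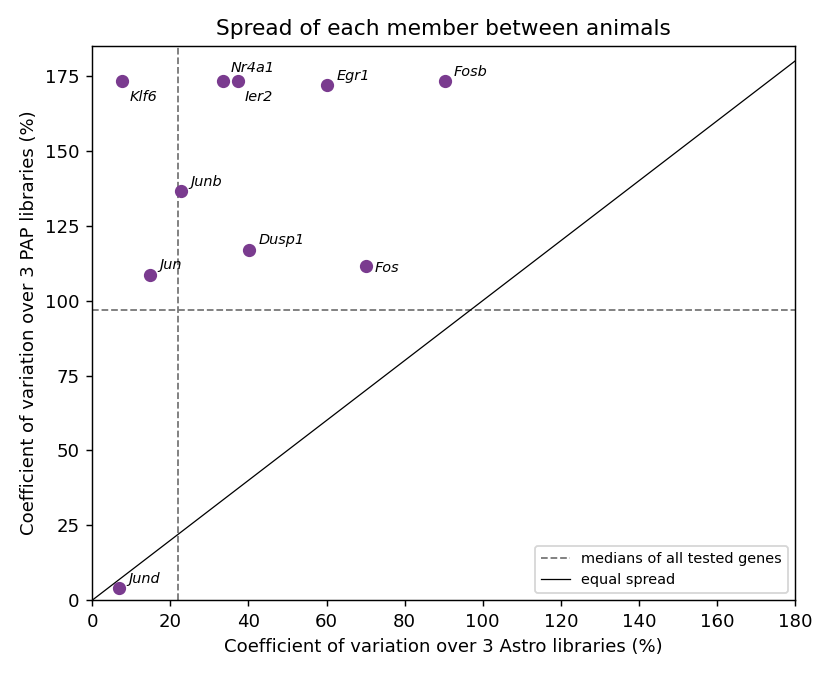
CV of TMM-scaled CPM over the 3 Astro libraries (horizontal axis, %) and over the 3 PAP libraries (vertical axis, %) for the 10 genes; the dashed lines are the medians of all tested genes. Jund lies at 6.90% and 3.93%, and the other 9 lie above 100% in PAP.

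Depth differed between the compartments, so the spread was measured again with every library drawn down to the smallest total. The median CV of the 9 was then 37.8% in Astro and 139% in PAP, beside 26.6% and 96.6% over all tested genes. At that depth 9, 9 and 9 of the 10 genes kept more than 3 counts in Astro and 4, 7 and 4 in PAP, whereas 88.9% to 89.9% of tested genes did so in Astro and 58.6% to 64.4% in PAP. Klf6 had 34, 47 and 53 counts in Astro and 0, 328 and 0 in PAP, and Egr1 had 31, 32 and 82 in Astro and 0, 134 and 1 in PAP.

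At equal depth, 5 of the 10 genes (Fos, Junb, Egr1, Ier2 and Klf6) combined a PAP library of 3 counts or fewer with one of at least 30, beside 30.3% of tested genes. None of the 10 did so in Astro, beside 0.123%. Of the 8 genes with at least 20 summed PAP counts, 4 (Fosb, Egr1, Ier2 and Klf6) had at least 95% of their summed PAP CPM in 1 library, beside 19.3% of 11014 tested genes. Such all-or-none values in PAP were thus common in the whole transcriptome and are not particular to these genes. Jund, the most even of the 10, differed from them, with a PAP CV below that of all but 0.212% of 13212 tested genes and of all but 0.771% of the 2076 that had over 100 CPM. That CV comes from 3 libraries with 320, 297 and 498 counts, and was 5.30% at equal depth. The part of counting noise in so low a value was not tested.

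**Figure D4:**
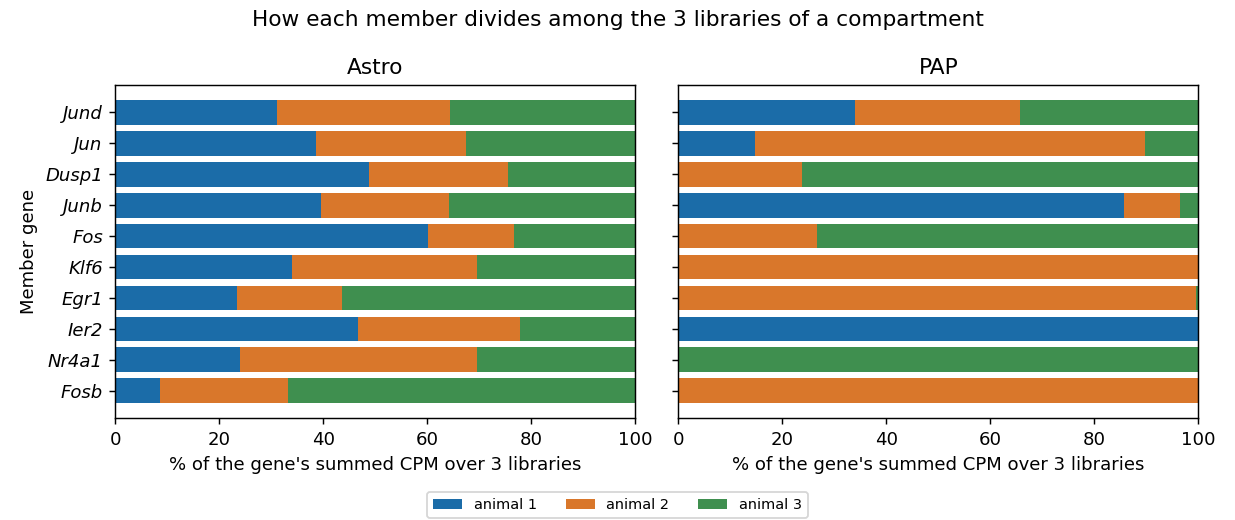
Share of each gene's summed CPM that came from each animal (horizontal axis, %), in Astro and in PAP. Jund is divided almost evenly in both, while Klf6 and Fosb in PAP come wholly from animal 2 and Ier2 from animal 1; the Nr4a1 bar in PAP is 1 count and the Dusp1 bar 6 counts.

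The spread among the technical replicates of a library was measured apart from that among animals. A chi-square dispersion index, which is 1 for counting noise alone, was 0.382 to 5.36 with a median of 1.30 over the 34 pairs of gene and library with at least 80 counts. The highest values were those of Jund in Astro of animals 2 and 3. Egr1 in PAP of animal 2 had 12 to 23 counts in each of the 8 replicates. Fos in PAP of animal 3 had 11 to 20 in each. The labels do not say at which step the 8 replicates were split.

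The animal with the most RNA of a gene was not the same for all 10. Among the 8 with at least 20 PAP counts, PAP of animal 1 was highest for Junb and Ier2, of animal 2 for Fosb, Jun, Egr1 and Klf6, and of animal 3 for Fos and Jund. Summed over all genes but Jund, the immediate early genes had 264, 183 and 218 CPM in Astro and 69.1, 404 and 63.8 CPM in PAP of animals 1 to 3. PAP of animal 2 was above all Astro libraries in that sum and the other PAP libraries were below them.

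Markers of other cells were uneven over the same libraries. The 19 neuron markers summed to 1309, 1684 and 2119 CPM in Astro and to 1710, 2870 and 1838 CPM in PAP, with 4, 3 and 6 of them at 0 in PAP of animals 1 to 3. PAP of animal 2 had the highest sum, and was the highest PAP library for 11 of 16 neuron markers with at least 20 PAP counts, beside 30.4% of all tested genes. The markers did not move as one. Of the 19, 2 were called higher in PAP and 3 lower, beside 5.92% and 15.4% of all tested genes. Map2, of dendrites, had 101, 0 and 854 counts in PAP, and Snap25, of synaptic terminals, had 87, 252 and 505. Among 26 other immediate early genes with at least 20 PAP counts, animal 2 was highest for 8. The part of neuronal RNA in the levels of Egr1, Klf6, Jun and Fosb in that library was not tested.

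Sums for 3 further cell types were smaller than for neurons. The 14 microglia markers summed to 50.1 to 108 CPM in Astro and to 181, 219 and 99.3 CPM in PAP, where 10, 9 and 8 of them were at 0. The sum was above every Astro library in PAP of animals 1 and 2. Of 10 tested, 3 were called lower (Cx3cr1, P2ry12 and Tmem119, without a PAP count) and none higher, beside 15.4% and 5.92% of all tested genes. The 12 oligodendrocyte lineage markers summed to 823 to 886 CPM in Astro and to 496, 846 and 1036 CPM in PAP, where 6, 2 and 3 of them were at 0. The 12 endothelial and mural markers summed to 27.4 to 46.6 CPM in Astro and to 14.8 to 29.4 CPM in PAP, with 9, 8 and 8 of them at 0 in PAP of animals 1 to 3. Their part in the results was not tested.

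The 10 genes were set beside related genes in 5 lists, whose counts are read against the 5.92% of all tested genes that were called higher and the 15.4% called lower. Of 42 other immediate early genes, 33 were tested, 2 rose and 5 fell, with a median log2 fold change of -1.29 (-0.99 with genes at the detection limit set to their bound). The shares that rose and fell were close to those of all tested genes. The genes that rose were Btg2, an antiproliferative gene, and Myc. Btg2 had 49.0, 21.7 and 58.5 CPM in Astro and 2710, 1093 and 1453 CPM in PAP, a log2 fold change of 5.35 ± 0.59 (SE, n = 3; edgeR adjusted p = 0.0071, and 0.0151 with the animal as a block). Every PAP library was far above every Astro library, the opposite of Dusp1. Myc, at 4.02, was called (edgeR adjusted p = 0.0182) but not with the block (0.173).

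Of the 5 genes of that list that fell, 3 had no PAP count. Egr3, Egr4 and Dusp5, a phosphatase of ERK, had no count in any PAP library and were at least 1.83-fold, 3.59-fold and 3.69-fold lower. Nr4a2, the relative of Nr4a1, had 57, 135 and 251 counts in Astro and 1 in each PAP library, a ratio of Astro to PAP of 18.5 (95% counting interval 6.28 to 89.9). Ccn1, a secreted matrix protein, had a ratio of 39.4 (10.9 to 326). None of these 5 was called with the animal as a block, where their adjusted p ran from 0.206 to 0.260. The list's most abundant genes in Astro, Klf9 and Gadd45g, had log2 fold changes of -1.75 and -2.56 that did not pass (edgeR adjusted p = 0.193 and 0.141).

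Among 29 upstream regulators, all tested, 3 rose and 1 fell, with a median of -0.05. Elk4, a partner of serum response factor, had 20.9, 22.4 and 22.5 CPM in Astro and 1305, 566 and 873 CPM in PAP, a log2 fold change of 5.38 ± 0.42 (SE, n = 3; edgeR adjusted p = 0.00227, and 0.0151 with the block). The compartments were far apart in every animal, although Elk4 overlaps Mfsd4a on the other strand and Gm29103 on its own strand. Atf1 (4.07) and Mef2c (2.84), transcription factors known to act on promoters of immediate early genes, were called without the block and not with it (edgeR adjusted p = 0.0653 and 0.206 with it). Rps6ka5, a kinase of chromatin and CREB, had no PAP count and was at least 4.08-fold lower. The kinase Map2k1, abundant in Astro, had a log2 fold change of -1.10 that did not pass (edgeR adjusted p = 0.397).

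Of 16 other bZIP factors that can pair within AP-1 and related dimers, 13 were tested, 3 rose and 2 fell, with a median of 0.47. The sign of this median turned with the animal as a block, to -0.54, beside -1.63 over all tested genes. Mafg, a small Maf protein, had 57.2, 39.9 and 79.0 CPM in Astro and 3465, 2257 and 2096 CPM in PAP, a log2 fold change of 5.47 ± 0.40 (SE, n = 3; edgeR adjusted p = 0.00211, and 0.0151 with the block). It overlaps Sirt7 on the same strand. Atf5 (3.57, overlapping Nup62) and Atf7 (2.17) rose without the block and not with it (edgeR adjusted p = 0.206 for both with it). Bach2 was among those that fell, with a ratio of Astro to PAP of 35.3 (95% counting interval 6.28 to 1398). Atf2 and Nfe2l2, the most abundant in Astro, did not pass, at -1.43 and -2.47 (edgeR adjusted p = 0.256 and 0.518).

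Of 8 further MAP kinase phosphatases, the class of Dusp1, 2 fell and none rose, a count too small to set apart from the share over all tested genes. Their median was 0.10, and -0.60 with the animal as a block. Dusp14 and Dusp10 had no count in any PAP library and were at least 12.2-fold and 2.76-fold lower. Dusp3, the most abundant of them in Astro, had a log2 fold change of 0.45 ± 0.49 (SE, n = 3; edgeR adjusted p = 0.633), and Dusp7 0.74 ± 1.21 (0.765). Of 12 proteins that bind or act on AU-rich elements, 2 fell and none rose, with a median of -0.17, a share close to that over all tested genes: Elavl1 by 1.89 on the log2 scale (edgeR adjusted p = 0.0408) and Elavl2 with a ratio of Astro to PAP of 11.9 (95% counting interval 4.03 to 58.0). Cnot7, a deadenylase, had -1.02 (edgeR adjusted p = 0.489). With the animal as a block, Btg2, Elk4 and Mafg were the calls left in these 5 lists.

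**Figure D5:**
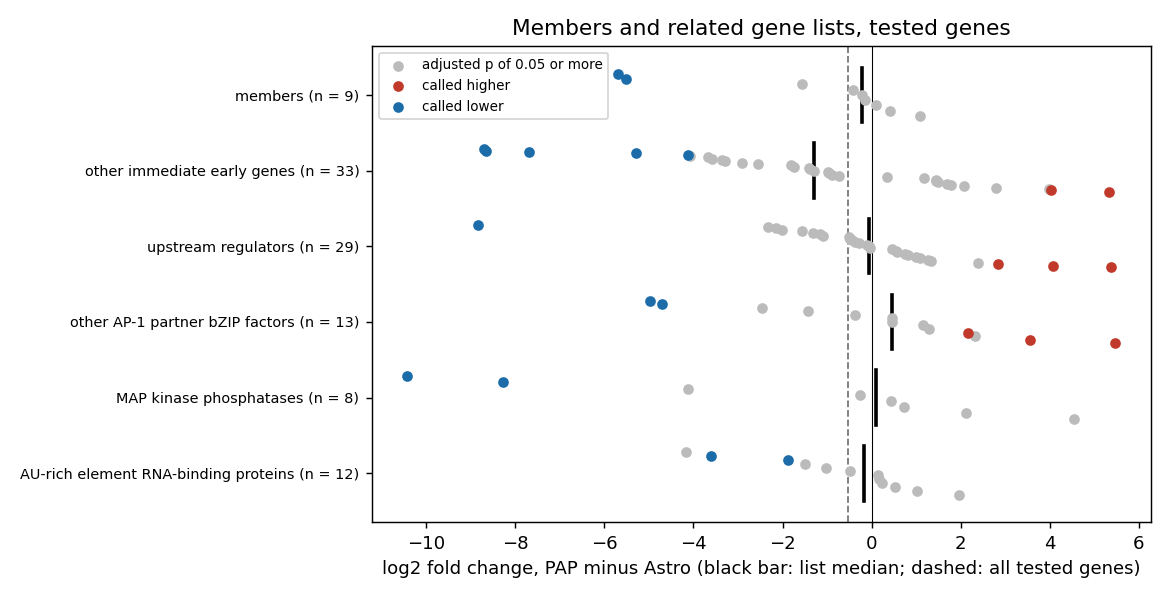
Log2 fold change of PAP over Astro (horizontal axis) for every tested gene of the 10 and of the 5 related lists; colours mark an adjusted p under 0.05, black bars are list medians and the dashed line is the median of all tested genes, -0.53. Genes with 3 or fewer counts in every PAP library lie at the left, where the position depends on the prior count and is not an estimate of size.

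Features of the transcripts that the choice by name did not use were counted, with no test. In GENCODE M21, 3 of the 10 (Jun, Jund and Ier2) have 1 exon in every annotated transcript, beside 2.21% of 12679 tested protein-coding genes. The AU-rich pentamer ATTTA, a mark of rapid decay, occurred in the 3′ UTR of 9 of 10, all but Ier2, beside 70.6%, and the longer TATTTAT, which contains it, in 6 of 10 (Fos, Fosb, Jun, Jund, Klf6 and Dusp1) beside 30.2%. The median 3′ UTR was 785 bases beside 1389, with 2.75 pentamers per kb beside 1.22. Dusp1, which fell, and Jund, which was even, both held TATTTAT, 3 times and 1 time.

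Genes whose levels over the 6 libraries were most like the mean profile of the members included Capzb (Pearson r = 0.998), Zmiz1 (0.996), Chchd3 (0.995) and Fam210b (0.995), out of 7633 candidates with a mean of at least 20 CPM. Capzb had 426, 378 and 455 CPM in Astro and 119, 233 and 102 CPM in PAP, and Zmiz1 had 63.2, 48.6 and 67.9 CPM in Astro and 0, 9.75 and 0 CPM in PAP. These 4 were lower in every PAP library than in any Astro library, and within PAP were highest in animal 2. These correlations describe 6 libraries in which compartment and depth change together.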

How the data were processed

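Counts per gene were deposited for 48 samples, as raw whole-number counts with no scaling by the authors, per the file headers and values. Per the submitters' processing notes, bcl2fastq 2.18.0.12, Trim Galore 0.4.1, STAR 2.5.2b, SAMtools and HTSeq 0.5.3 were used with the mm10 build; strand setting, annotation and molecular identifiers are not given in the sources used here. Per the labels' protocols, lysates passed a column without antibody and one with nonspecific mouse IgG, and RNA was amplified with SMART-Seq v4 and made into Nextera XT libraries, so intervals and limits cover counting error only. Symbols, positions, exonic lengths and 3′ UTRs came from GENCODE M21 (GRCm38), which held 47224 of 47643 identifiers.

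Counts of the 8 technical replicates were summed within each animal and compartment. PAP was compared with Astro over 6 libraries with edgeR 4.0.16 (R 4.3.3): filterByExpr with a minimum count of 10, TMM factors, quasi-likelihood test, Benjamini-Hochberg adjustment over all 14618 tested genes, threshold 0.05. The p-values rest on 3 animals per compartment. The bound of a gene without PAP counts is its mean Astro CPM over the mean CPM of 3 counts per PAP library; genes with 1 to 3 PAP counts have a ratio with an exact 95% interval.

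Both compartments came from the same animals, per the labels, and the animal was entered as a block in a further fit. Deviations of same-animal libraries from their group means correlated at 0.03, 0.02 and -0.02. The members and lists were chosen with earlier results of these data known. All 10 members are named. From the other lists, the called genes with the largest fold changes (at most 5 each) and the 2 most abundant in Astro were selected. Marker lists are given mainly as sums and counts, and Fgfr3 was named after its values were seen. The 5 genes most like the members' mean profile of standardised log2(CPM + 1) were also selected. A few genes that these criteria select are not reported here. Alternatives were DESeq2 1.42.0, voom in limma 3.58.1, other scalings and filters, equal depth, subsets of technical replicates and left-out libraries. The procedure was tested on simulated data, where it called the changed genes when replicates lay close together and none of them when replicates were widely spread. The simulated spread was the same in both compartments, unlike that of the data (median CV 22.1% in Astro and 97.0% in PAP). The simulation therefore does not show how reliable the calls made here are.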

Additional observations from a re-analysis of the deposited data

How the results depend on the processing

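Jund, Jun, Junb, Nr4a1 and Dusp1 kept their direction under every alternative in which they were tested. The main test called 3115 genes and 2 of the immediate early genes. With the animal as replicate block 133 genes (128 higher, 5 lower) and 0 members were called (2 at an unadjusted p under 0.05), with DESeq2 5141 genes, at a mean of at least 100 counts 1414 genes and 1 member (Nr4a1 and Ier2 were not tested there), at equal depth 1733 genes and 0 members (Nr4a1 was not tested there), and at an adjusted p under 0.01 163 genes and 0 members. Leaving out 1 library gave 115 to 4586 genes and 0 to 5 members, where no Astro library could be left out without losing both members. Higher calls were 27.8% of the main calls, 17.1% with voom, 41.5% at equal depth, 41.6% at the stricter filter, 93.3% at an adjusted p under 0.01, 96.2% with the replicate block and 96.1% to 99.1% without 1 Astro library. The log2 fold change of Fos turned to -0.325 with the replicate block, -0.060 without a filter, -0.274 in technical replicates 1 to 4 and -1.650 with voom, and ran from -1.292 to 0.835 with 1 library left out. Egr1 was -5.105 with the replicate block and -3.378 with voom, turned to 0.058 at a mean of at least 100 counts and ran from -7.059 to 0.491 with 1 library left out. Ier2 turned to -3.931 with the replicate block and -2.414 with voom and ran from -9.311 to 0.952. Klf6 turned to -5.647 and -3.560 in these fits and ran from -11.331 to 1.632. The lowest of these values rest on 3 or fewer PAP counts and depend on the prior count; the cause of the other changes was not tested. The median of all tested genes moved up by 0.15 with library size alone, by 0.21 at a mean of at least 100 counts and by 0.30 at equal depth, and changed by -1.11 with the replicate block, -1.09 with voom, -0.52 without a filter, 0.12 to 0.16 without 1 Astro library and -0.42 to -0.33 without 1 PAP library. Adjusted p over the alternatives ran from 2.01e-07 to 0.206 for Dusp1 and from 0.000245 to 0.206 for Nr4a1. Fosb was tested without a filter and without PAP of animal 1 or 3.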
